A study of Mus musculus with 4 samples.

Results

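The ID proteins and the EMT-type transcription factors were followed as a set of 10 genes: Id1, Id2, Id3, Id4, Snai1, Snai2, Twist1, Zeb1, Zeb2 and Skil. Their probes were found by the gene name in the array files or by the current symbol of the probe's RefSeq accession, which gave 17 of 41174 probes and 10 of 27670 gene names. Transcript levels were measured in B16-F10, an established mouse melanoma line, grown in high-glucose DMEM with fetal bovine serum. Each of 4 Agilent arrays carried both dyes. The Cy5 channel held RNA of cells given a goat polyclonal antibody against mouse TIM3. The Cy3 channel held RNA of cells given unspecific goat IgG. Both were given at 15 ug/ml for 2 h. TIM3, encoded by Havcr2, is an immune checkpoint receptor. The replicates are passages 14, 16, 18 and 19 of the line, numbered 1 to 4, so the spread behind each p-value is that between passages of 1 line. No array had the dyes exchanged, so an effect of the antibody and an effect of the dye cannot be told apart. For replicate 3 the labels name the antibody in the source name but do not restate its treatment. The source name calls the antibody an agonist for replicate 1 and leaves that word out for replicates 2, 3 and 4.

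ID proteins are helix-loop-helix proteins without a DNA-binding region. They pair with E proteins and keep them from binding E-box DNA, and their genes are known direct targets of BMP signalling through SMAD proteins. SNAIL (Snai1, Snai2), ZEB (Zeb1, Zeb2) and TWIST factors repress E-cadherin and other epithelial genes during the epithelial to mesenchymal transition (EMT), and they also act in the neural crest, from which melanocytes arise. In melanoma, Snai2 and Zeb2 are known from the differentiated, melanocytic state and Zeb1 and Twist1 from less differentiated states. Skil encodes SnoN, a corepressor that binds SMAD proteins and is itself induced by TGF-beta.

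Members and whole array were read on the same scale: log2 ratios are given as anti-TIM3 over IgG after loess normalisation within each array, so a positive value is a stronger antibody channel. Tested probes are those that the scanner software marked as well above background on 3 or more of the 4 arrays, in Cy3 or in Cy5, and a probe is called higher or lower where limma's adjusted p, by the Benjamini-Hochberg method over all 26552 tested probes, was under 0.05. The melanocytic identity of the cells was visible in both channels: all 7 melanocyte markers (Tyr, Tyrp1, Dct, Pmel, Mlana, Sox10, Mitf) had a probe detected in Cy3 and Cy5 on each array, as did 3 of 7 fibroblast, 3 of 6 epithelial, 3 of 6 leukocyte and 0 of 4 endothelial markers, with Ptprc, the defining leukocyte gene, detected by 0 of its 4 probes. Havcr2 itself was detected in both samples of each passage, at a log2 ratio of 0.04 ± 0.04 (SD, n = 4; limma, adjusted p = 0.40; 95% confidence interval -0.04 to 0.12). The number of detected probes per array was 21152 to 22052 for Cy3 and 25666 to 28401 for Cy5.

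Of the 17 probes 12 were tested, and they cover 6 genes: Id1, Id2, Id3, Snai2, Zeb2 and Skil. Id3 fell, and Snai2, 1 of 4 Zeb2 probes and 1 of 2 Skil probes rose, with mean log2 ratios between -0.22 and 0.20, which correspond to changes of -14.2% to 14.8%. Without loess, each array being centred only on the median of all 41174 probes, all 12 ratios, that of Id3 included, were above 0. The median of all tested probes was then 0.15. The 5 probes of Id4, Snai1, Twist1 and Zeb1 were not tested, being too dim. The 4 calls among 12 tested probes are 33.3%, beside 27.8% of all tested probes (7377 of 26552; 14.2% higher and 13.6% lower), so the share of members called is near the background. The members' median absolute log2 ratio was 0.10, beside 0.077 for all tested probes. Ratios had the same sign on all 4 arrays for 9 of 12 member probes (75%) and for 47.7% of all tested probes. The same comparison under other processings gave other counts of members, beside other backgrounds. In the deposited log ratios 2 member probes were called higher and 0 lower (4 and 2 at an unadjusted p under 0.05 in limma), beside 19.8% of all tested probes called and 8.98% called lower. At that unadjusted threshold 5676 of all tested probes were higher and 4892 lower. With intensity and base composition trends removed, 3 were called higher and 4 lower, beside 26.3%. With an offset of 10 in the normexp background correction, 2 were called higher and 1 lower, beside 21.7%. With the channels fitted as unpaired samples, 0 were called in limma (1 higher and 1 lower unadjusted), beside 2.19% of all tested probes (1.24% higher and 0.949% lower). Unadjusted, 2440 of all tested probes were higher and 2408 lower there.

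**Figure D1:**
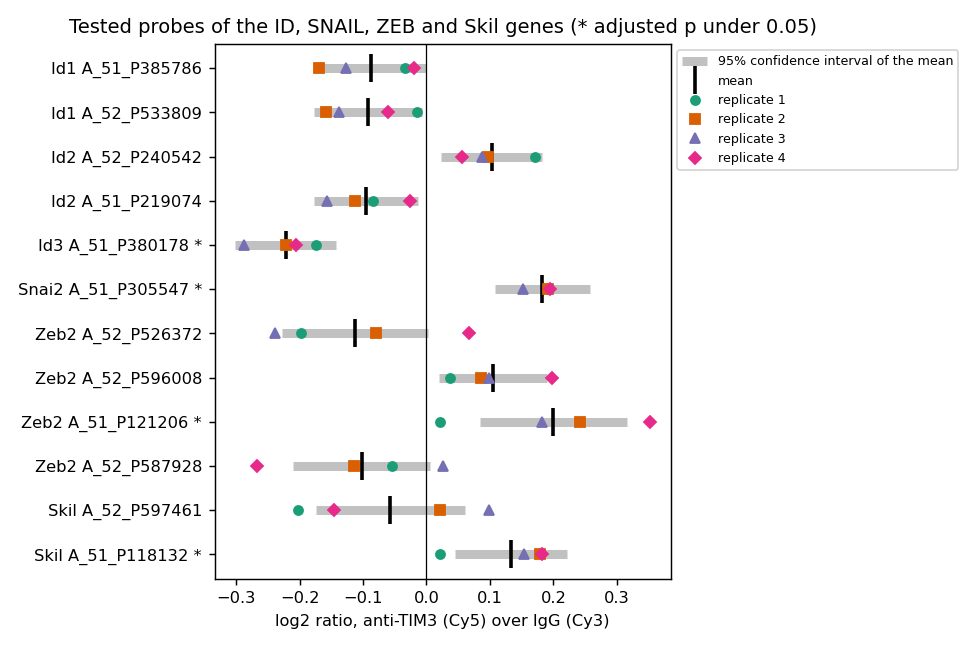
Log2 ratio of anti-TIM3 (Cy5) over IgG (Cy3) for the 12 tested probes of the 6 measured genes, 1 symbol per replicate, with the mean (black tick) and its 95% confidence interval (grey bar); an asterisk marks an adjusted p under 0.05. All 4 Id3 values lie between -0.29 and -0.17 and all 4 Snai2 values between 0.15 and 0.20 after loess normalisation. With median centring alone the Id3 mean is 0.22, beside a median of 0.15 for all tested probes.

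Each probe is an oligonucleotide of 60 bases, and the start of those on which the results turn is given here because the probes of Id2, Zeb2 and Skil gave different answers. The first 30 bases are printed 5′ to 3′, as in the array files. Capitals mark the stretch within them that the Id1 probes share; as a whole those probes overlap by 50 bases, so they are not separate measurements.
Id1 A_51_P385786: gaggaaatatTTTGTATTGTATATTACAAT
Id1 A_52_P533809: TTTGTATTGTATATTACAATGATCACTGGC
Id2 A_52_P240542: tgagtgaaccttgtggactctttaattaga
Id2 A_51_P219074: caggcatctgaattcccttctgagcttatg
Id3 A_51_P380178: tccgcatctcccgatccagacagctgagct
Snai2 A_51_P305547: gtgaggtacggttaatagccacgcctatat
Zeb2 A_52_P526372: tacgtgggggaaaatatatgtgaaagcaat
Zeb2 A_52_P596008: ctgtattttcgactgaaaattccactttct
Zeb2 A_51_P121206: acgaggaagacaatatggaagatggcatgg
Zeb2 A_52_P587928: tgcagggctataagaacaaatgttcggatg
Skil A_52_P597461: tgctcagaggatggaggaattctatattga
Skil A_51_P118132: tgccaatgcatatagttttatgattaaaat

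All positions below are those of the array files on mouse build mm7. Whether a probe lies in a coding exon or an untranslated region is not given in the sources used here. The Id3 probe and Id2 probe A_51_P219074 have file coordinates that span 115 and 288 bases more than the probe's own length.

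Id3 was the ID gene with a call. Its probe on the plus strand of chromosome 4, chr4:135522597-135522771, had normalised log2 intensities with IgG of 13.50, 13.61, 13.50 and 13.49 in replicates 1 to 4. With anti-TIM3 the values were 13.32, 13.39, 13.21 and 13.28. The antibody channel lay below the IgG channel on every array, and the 4 values of one channel did not overlap the 4 of the other. That held for 1 of the 12 member probes (Id3) and for 12.6% of all tested probes. The paired log2 ratios were -0.17, -0.22, -0.29 and -0.21, with a mean of -0.22 ± 0.05 (SD, n = 4; 95% confidence interval -0.30 to -0.14; limma, adjusted p = 0.00320), so Id3 fell by 14.2% after loess, whereas the ratio was 0.22 with median centring alone, beside a median of 0.15 for all tested probes. The size of this ratio was at percentile 92.3 of the absolute ratios of all tested probes. Leaving out any 1 replicate kept the call. In the deposited log ratios, the authors' own normalisation of the same spots, the Id3 ratio was -0.14 with an adjusted p of 0.0515 in limma, just outside the threshold.

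The scanner signal of Id3 before normalisation was 13690, 7589, 6912 and 7183 in Cy3 and 16409, 16116, 12400 and 11761 in Cy5. The unnormalised Cy5 signal was therefore above Cy3 on all 4 arrays, and the direction of the Id3 result comes from comparison with other probes of like brightness. The 500 tested probes nearest to Id3 in intensity had a median log2 ratio of -0.04, and 25% of them were called lower and 12% higher. With trends on intensity and on probe base composition removed, Id3 had -0.17 (limma, adjusted p = 0.011).

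**Figure D2:**
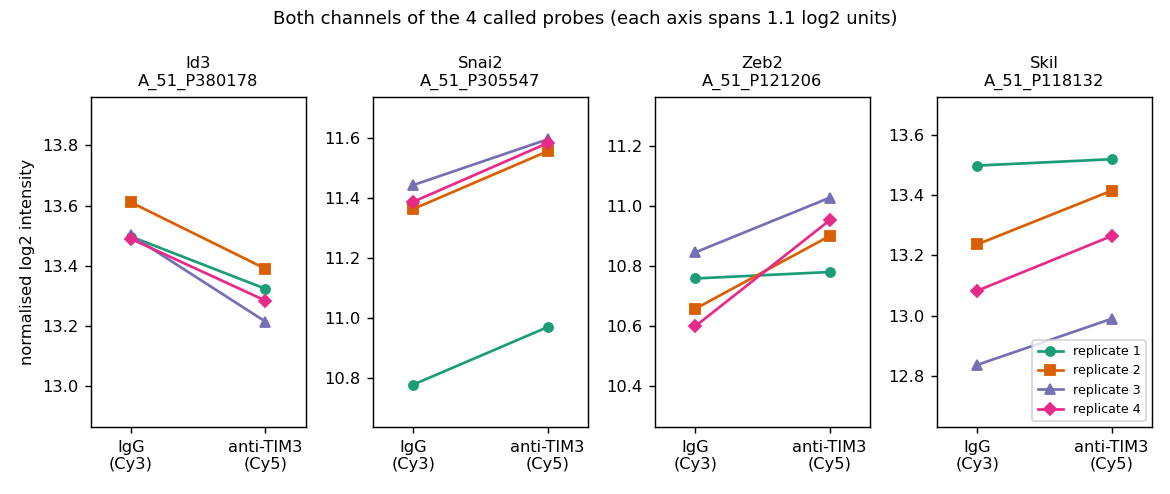
Normalised log2 intensity of the IgG (Cy3) and anti-TIM3 (Cy5) channels for the 4 called probes, with a line joining the channels of each array; each vertical axis spans the same range in log2 units. The lines of Id3 all go down and those of Snai2, Zeb2 and Skil all go up after loess normalisation, and for Snai2 replicate 1 lies below the other replicates in both channels. With median centring the Id3 ratio is 0.22, beside a median of 0.15 for all tested probes.

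Id1 and Id2 were not called. The ratios of Id1 probe A_51_P385786 (chr2:152478157-152478216, plus strand) were -0.03, -0.17, -0.13 and -0.02, with a mean of -0.09 ± 0.07 (SD, n = 4; limma, adjusted p = 0.118). Those of probe A_52_P533809 (chr2:152478167-152478226) were -0.01, -0.16, -0.14 and -0.06, with a mean of -0.09 ± 0.07 (limma, adjusted p = 0.0949). Replicates 2 and 3 had the lower values at both overlapping probes. Both Id1 probes were below 0 on 4 of 4 arrays after loess and above 0, at 0.30, with median centring. With the intensity and base composition trends taken out, Id1 passed at both probes, with log2 ratios of -0.13 and -0.14 (limma, adjusted p = 0.032 and 0.028). The probes hold 25% and 26.7% G and C bases.

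The probes of Id2, on the minus strand of chromosome 12, lie 1219 bases apart and had opposite signs. At A_52_P240542 (chr12:22930541-22930600), the brightest member probe, the ratios were 0.17, 0.10, 0.09 and 0.06, with a mean of 0.10 ± 0.05 (SD, n = 4; limma, adjusted p = 0.0570). At A_51_P219074 (chr12:22931820-22932167) they were -0.08, -0.11, -0.16 and -0.03, with a mean of -0.10 ± 0.06 (limma, adjusted p = 0.0774). Every array gave the first probe the higher ratio, by 0.20 on average (exact sign-flip permutation test, two-sided, p = 0.125, the smallest that 4 arrays allow). A gap of this size or more was found in 21.7% of 11777 pairs of tested, non-overlapping probes that share a gene name. The first probe had a mean log2 intensity of 15.8, where ratios ran high on these arrays: its 500 nearest probes in intensity had a median of 0.14, and 53.8% of them were called higher. After removal of the trends with intensity and base composition, its ratio was -0.08 (limma, adjusted p = 0.098), and in the deposited log ratios it was -0.01. The second Id2 probe had -0.14 and passed with those trends removed (limma, adjusted p = 0.023), and 0.43 with median centring.

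**Figure D3:**
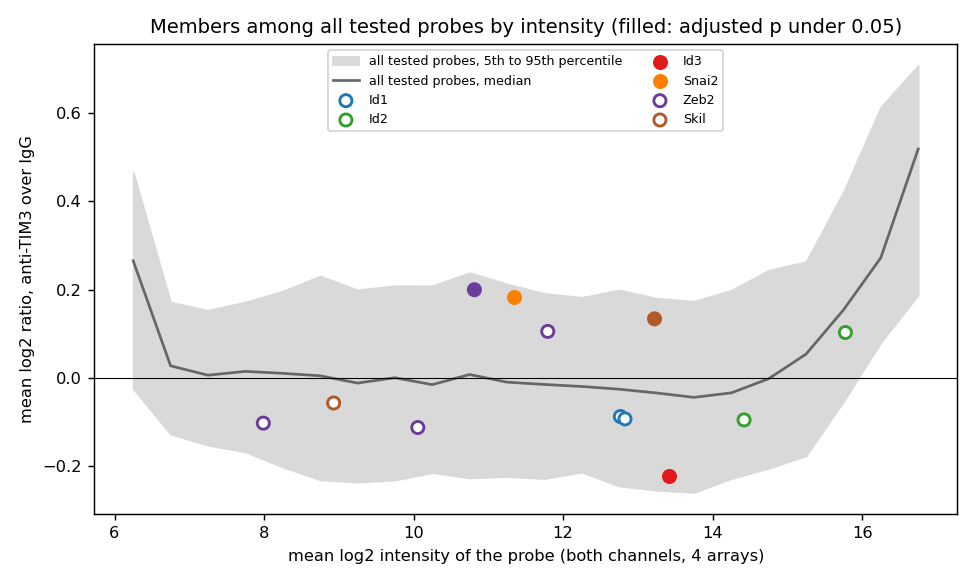
Mean log2 ratio of anti-TIM3 over IgG against mean log2 intensity for the 12 tested member probes (circles, filled where the adjusted p is under 0.05), over the median (line) and the 5th to 95th percentile (grey) of all tested probes in intensity bins after loess normalisation. The line rises from -0.04 at intensities of 13.5 to 14 to 0.15 at 15.5 to 16, where the brighter Id2 probe lies. With median centring all 12 member ratios are above 0, as is the median of all tested probes.

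Among the SNAIL factors, Snai2 rose. It is a zinc-finger repressor that is normally expressed in melanocytes and their precursors. Its probe (chr16:14250104-14250163, plus strand) had normalised log2 intensities with IgG of 10.78, 11.36, 11.44 and 11.39 and with anti-TIM3 of 10.97, 11.56, 11.59 and 11.58. Passages differed by up to 0.66 in the IgG channel, with replicate 1 the lowest in both channels, so the channels overlapped and the difference showed only within arrays. The ratios were 0.19, 0.19, 0.15 and 0.20, with a mean of 0.18 ± 0.02 (SD, n = 4; 95% confidence interval 0.11 to 0.26; limma, adjusted p = 0.00524), a change of 13.5%. Snai2 kept its call in the deposited log ratios (0.19, limma, adjusted p = 0.027), without any 1 replicate, and with the trends removed (0.21). With Cy3 and Cy5 fitted as unpaired samples, its adjusted p in limma was 0.65. The 500 probes nearest in intensity had a median of -0.01, with 15.8% called higher and 17.4% lower.

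Snai1, the factor for which the family is best known as a repressor of E-cadherin, was not measurable. Its probe (chr2:167283227-167283286) was not well above background in Cy3 on any array and was so in Cy5 on 2 of 4. The mean signals were 93.7 to 108 in Cy3 and 60.3 to 85.0 in Cy5, while the array medians of 153 negative control spots were 75.4 to 99.8 in Cy3 and 46.5 to 53.7 in Cy5. The bound on its fold, set against the lowest signal among detected probes, came out under 1, so no fold is given.

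Zeb2, a zinc-finger and homeobox factor that represses E-cadherin and takes part in melanocyte differentiation, had 4 tested probes on the minus strand of chromosome 2. The probe A_51_P121206 (chr2:44995859-44995918) rose, with ratios of 0.02, 0.24, 0.18 and 0.35 and a mean of 0.20 ± 0.14 (SD, n = 4; 95% confidence interval 0.08 to 0.32; limma, adjusted p = 0.0209), a change of 14.8%. Its IgG values were 10.76, 10.66, 10.85 and 10.60 and its anti-TIM3 values 10.78, 10.90, 11.03 and 10.95. Replicate 1 showed almost no difference and replicate 4 the greatest. The adjusted p in limma was 0.062 without replicate 2 and 0.082 without replicate 4. In the deposited log ratios the probe passed at 0.24 (limma, adjusted p = 0.045).

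The other Zeb2 probes were not called. The brightest, A_52_P596008 (chr2:44994565-44994624), had ratios of 0.04, 0.09, 0.10 and 0.20 and a mean of 0.11 ± 0.07 (SD, n = 4; limma, adjusted p = 0.0653), above 0 on every array like the called probe. The probe A_52_P526372 (chr2:44991829-44991888) had -0.20, -0.08, -0.24 and 0.07, with a mean of -0.11 ± 0.14 (limma, adjusted p = 0.127). Replicate 4 was the exception to its sign, and without that replicate the probe was called lower at -0.17 (limma, adjusted p = 0.042). The probe A_52_P587928 (chr2:45028303-45028362), the dimmest of the 4, had -0.05, -0.11, 0.03 and -0.27, with a mean of -0.10 ± 0.12 (limma, adjusted p = 0.139). The latter 2 probes were at 0.13 and 0.00 with median centring. The called probe lay above A_52_P526372, 3970 bases away, on 4 of 4 arrays, by 0.31 on average (exact sign-flip permutation test, two-sided, p = 0.125, the smallest possible); 6.50% of the 11777 probe pairs of a gene were as far apart. It lay above A_52_P587928, 32384 bases away, by 0.30 on 4 of 4 arrays, a gap that 7.32% of pairs reached, and above A_52_P596008 by 0.09 on 3 of 4. Zeb2 as a gene therefore had 2 probes above 0 and 2 below. In the array annotation both probes above 0 carry the same transcript record, NM_015753. Those below 0 carry NM_001033635 (A_52_P526372) and AK031541 (A_52_P587928). Whether a probe reads only the transcript it is annotated to was not tested.

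Zeb1 and Twist1, which are linked to the less differentiated melanoma state, were not measurable. The Zeb1 probe was not well above background in Cy3 on any array and was so in Cy5 on 2 of 4, with mean signals of 94.5 to 117 in Cy3 and 65.8 to 75.8 in Cy5. Its bound was under 1, so no fold is given. The Twist1 probe was not well above background in either channel on any array, with signals of 72.2 to 85.8 in Cy3 and 47.8 to 53.4 in Cy5, which is the range of the negative controls. The 2 probes of Id4, the ID gene on chromosome 13, were likewise not well above background in either channel on any array, with signals of 75.9 to 108 in Cy3 and 45.8 to 63.1 in Cy5. The order of B16-F10 members by detection was thus Id1, Id2, Id3, Snai2, Zeb2 and Skil in both channels on all arrays, Snai1 and Zeb1 in Cy5 on some, and Id4 and Twist1 on none. These are statements about single probes at this sensitivity, and fewer cells with a transcript and less transcript per cell cannot be told apart.

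Skil had 2 tested probes on the plus strand of chromosome 3, 4753 bases apart. The brighter, A_51_P118132 (chr3:30934287-30934346), had IgG values of 13.50, 13.24, 12.84 and 13.08 and anti-TIM3 values of 13.52, 13.42, 12.99 and 13.26. Passages differed by more than the channels did, and replicate 3 was lowest in both. The ratios were 0.02, 0.18, 0.15 and 0.18, with a mean of 0.13 ± 0.08 (SD, n = 4; 95% confidence interval 0.05 to 0.22; limma, adjusted p = 0.0333), so this probe rose by 9.7%. The call was the least stable of the 4: the adjusted p in limma was 0.120, 0.098 and 0.116 without replicate 2, 3 or 4, 0.064 when the normexp offset was 10, and 0.112 in the deposited log ratios. The dimmer probe, A_52_P597461 (chr3:30929474-30929533), had ratios of -0.20, 0.02, 0.10 and -0.15 with a mean of -0.06 ± 0.14 (limma, adjusted p = 0.433), and 0.12 with median centring. Every array gave the brighter probe the higher ratio, by 0.19 on average (exact sign-flip permutation test, two-sided, p = 0.125, the smallest possible), a gap that 23.4% of probe pairs of a gene reached.

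**Figure D4:**
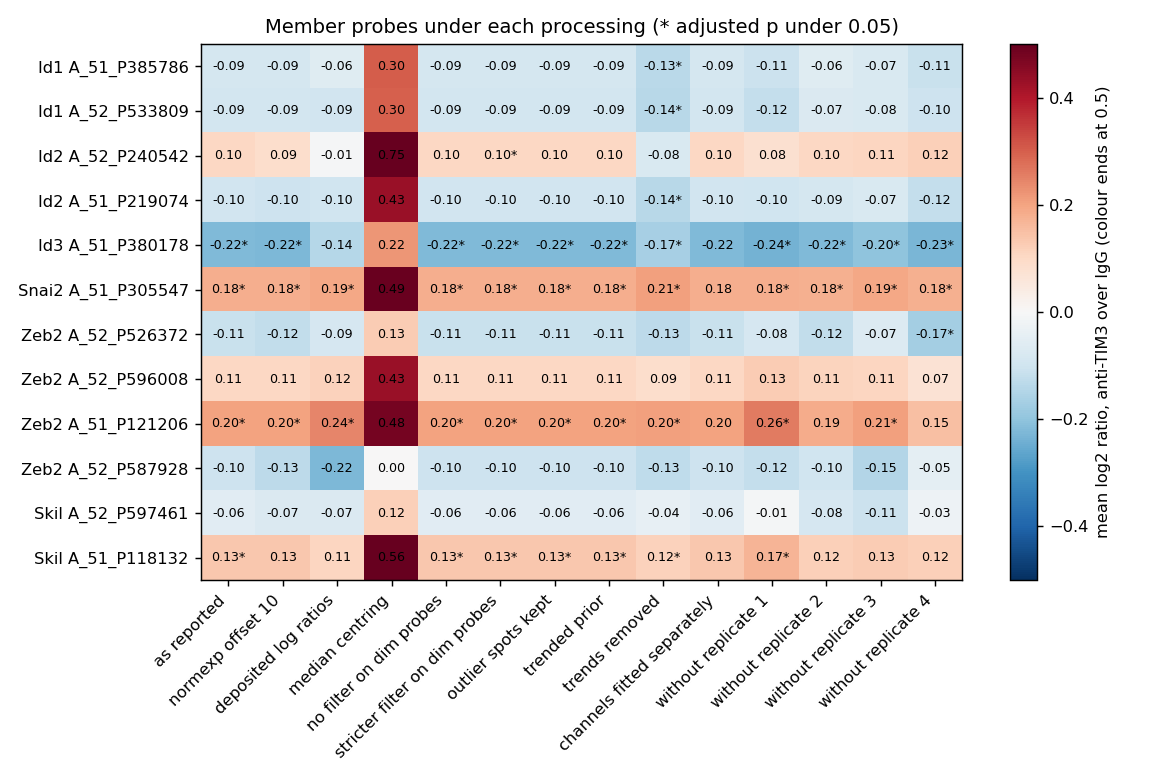
Mean log2 ratio of anti-TIM3 over IgG for the 12 tested member probes (lines of the grid) as reported and under 13 alternative processings (columns), coloured from blue (below 0) to red (above 0); an asterisk marks an adjusted p under 0.05. Snai2 keeps its asterisk in 11 of the 13 alternatives and Id3 in 10. In the median centring column every probe is above 0, where the median of all tested probes is 0.15.

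By role, the 5 tested ID probes gave 0 higher and 1 lower, with a median log2 ratio of -0.09 and a range of -0.22 to 0.10, and each had the same sign on all 4 arrays. At limma's unadjusted p under 0.05, 1 ID probe was higher and 4 were lower, and the lower ones include both overlapping Id1 probes. The 7 tested probes of the EMT-type factors and Skil gave 3 higher and 0 lower, with a median of 0.11 and a range of -0.11 to 0.20, and 4 had the same sign on all arrays. At an unadjusted p under 0.05 the counts were 4 higher and 0 lower. Of all 26552 tested probes, 5825 were higher and 5303 lower at that unadjusted threshold in limma. The difference between these sets was not tested, and with median centring every ID probe was above 0 as well, as was the median of all tested probes.

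The genes closest to Id3 in their ratios over the 4 arrays, by Euclidean distance, were Kpna4, a nuclear import receptor (distance 0.029, mean -0.21 ± 0.05), Ubxn8 (0.040, -0.22 ± 0.04) and Rce1, a protease that trims prenylated proteins (0.041, -0.23 ± 0.05). Those closest to Snai2 were Ppp3cc, a catalytic subunit of calcineurin (0.023, 0.19 ± 0.01), Akip1 (0.025, 0.19 ± 0.01) and Romo1, a mitochondrial membrane protein (0.028, 0.19 ± 0.02). These means are log2 ratios (SD, n = 4), and with 4 arrays a close pattern is a description.

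Id3 was the member for which the start region is shown, since it was the called ID gene. BMP signalling acts on ID genes through SMAD proteins. The 250 bases before its start in RefSeq (GRCm38.p6, chr4:136143572-136143821, plus strand) are given 5′ to 3′, with motif matches in capitals.
Id3: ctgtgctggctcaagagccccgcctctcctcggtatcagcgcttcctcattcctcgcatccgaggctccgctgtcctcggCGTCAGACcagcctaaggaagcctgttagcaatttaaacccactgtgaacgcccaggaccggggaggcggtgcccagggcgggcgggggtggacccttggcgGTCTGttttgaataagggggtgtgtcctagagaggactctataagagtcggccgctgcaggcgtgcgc
Searched on both strands were CAGAC, a SMAD-binding motif, GGCGCC, a motif of BMP-type SMADs, CANNTG, the E-box, and TGACG, the cAMP response half-site. CAGAC matched 2 times, 167 and 68 bases before the start, and TGACG once, 170 bases before it on the other strand, overlapping the first of those matches. No match was found in this window for GGCGCC or CANNTG. Sites farther from the start were not searched. Of 32536 distinct RefSeq start windows of the same length, 42.2% hold CAGAC, 17.9% TGACG, 9.65% GGCGCC and 66.2% CANNTG. The windows of Id2 and Id4 each hold 1 GGCGCC. The matches describe letters in a window, and no binding was measured.

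The partners, regulators and targets of the members were read from 10 lists with 129 genes, each gene by its brightest tested probe. Of 106 tested genes 20 were called higher and 10 lower (28.3%), beside 27.6% of all 17794 genes tested this way (14.8% higher, 12.8% lower), so the lists as a whole were near the background. The median over all genes was 0.0097. With median centring 0 of these genes were called in limma (unadjusted p under 0.05: 4 above 0, 0 below), and 86 of the 106 ratios were above 0. Of 28 called list genes with the same sign on 4 arrays, 14 did not pass in the deposited log ratios and 9 did not with intensity and base composition trends removed. At their brightest probes, Pax3, Tcf12, Gsk3b, Hdac1, Bmpr1a, Eng, Smad7 and Cdkn1b passed in every alternative other than median centring and unpaired channels. The other tested probes of Tcf12, Gsk3b, Bmpr1a and Cdkn1b were not called.

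Of the 3 E proteins that ID proteins bind, 1 rose: Tcf12 at 0.24 ± 0.06 (SD, n = 4; limma, adjusted p = 0.00286), though its other 4 tested probes lay between -0.08 and -0.02 and were not called. None was lower in limma (at an unadjusted p under 0.05 the counts were 1 and 0), and the list's median was 0.01. Among 15 other EMT-type and neural crest factors, 11 were tested, 3 rose and 0 fell in limma (4 and 0 at an unadjusted p under 0.05), with a median of 0.07. Pax3, a driver of melanoblast specification, was at 0.37 ± 0.16 (adjusted p = 0.00270), and its other probe, at 0.12, was called higher too. Tfap2a was at 0.17 ± 0.08 (adjusted p = 0.0156), with its other probe at 0.14 and not called, and did not pass in the deposited log ratios (limma, adjusted p = 0.0809). Sox10, the neural crest factor upstream of Mitf, was at 0.18 ± 0.12 (adjusted p = 0.0226), while its other probe was called lower at -0.30, so the gene has no single direction here. The Sox10 probe called higher did not pass in the deposited log ratios (limma, adjusted p = 0.0666).

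The corepressors and modifiers that act with or on SNAIL, ZEB and Skil proteins, 14 genes of which all were tested, gave 2 higher and 3 lower with a median of -0.05. Gsk3b, the kinase that marks SNAIL protein for degradation, was at 0.21 ± 0.09 (SD, n = 4; limma, adjusted p = 0.00749), although its other probe was at -0.12. The corepressor Ncor1 was at 0.12 ± 0.06 (adjusted p = 0.0351). Its 6 other tested probes lay between 0.003 and 0.14, and 1 of them was called higher. Ncor1 did not pass in the deposited log ratios (limma, adjusted p = 0.0575) or without replicate 2, 3 or 4 (adjusted p = 0.116, 0.102 and 0.127). Hdac1, the histone deacetylase recruited by SNAIL and Skil, fell on all 4 arrays with ratios of -0.28, -0.25, -0.28 and -0.24 (mean -0.26 ± 0.02, adjusted p = 0.00137) after loess and was at 0.16 with median centring. Ctbp1, the ZEB corepressor, was at -0.21 ± 0.17 (adjusted p = 0.0290), and Fbxl14, a ubiquitin ligase for SNAIL and TWIST proteins, at -0.21 ± 0.09 (adjusted p = 0.00787) with its other probe at -0.01. Ctbp1 and Fbxl14 were likewise above 0 with median centring, at 0.22 and 0.19. In the deposited log ratios neither passed (limma, adjusted p = 0.0980 and 0.0504). Ctbp1 also did not pass with a normexp offset of 10 (limma, adjusted p = 0.0593) or without replicate 1 or 4 (adjusted p = 0.115 and 0.110).

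Upstream, 12 of 16 BMP and TGF-beta ligands and extracellular inhibitors were tested, with 1 higher, 1 lower and a median of 0.02. Both that passed are BMP antagonists: Chrd was at 0.16 ± 0.10 (SD, n = 4; limma, adjusted p = 0.0234) and Nog at -0.12 ± 0.04 (adjusted p = 0.0357), both dim probes. Chrd did not pass in the deposited log ratios (limma, adjusted p = 0.0614). Nog was at -0.33 there and at -0.04, without a call (limma, adjusted p = 0.334), once the intensity and composition trends were removed. Of 13 receptors, 12 were tested, 3 rose and 1 fell, with a median of 0.002. Bmpr1a, the type I BMP receptor, was at 0.25 ± 0.09 (adjusted p = 0.00376), with its other probe at 0.0004. Acvr1b, an activin receptor, was at 0.16 ± 0.09 (adjusted p = 0.0189), with its other probe called higher too at 0.30. The first of these probes did not pass without replicate 2, 3 or 4 (limma, adjusted p = 0.0712, 0.0594 and 0.0717). Tgfbr1 passed without the same sign on all arrays, and Eng, a TGF-beta coreceptor, fell after loess to -0.24 ± 0.08 (adjusted p = 0.00358) and was at 0.08 with median centring.

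All 10 SMADs and SMAD ubiquitin ligases were tested, with 2 higher, 3 lower and a median of 0.03. Smad7, the inhibitory SMAD induced by TGF-beta, had ratios of 0.10, 0.27, 0.40 and 0.34 (mean 0.28 ± 0.13, n = 4; limma, adjusted p = 0.00505), and Smad2, a TGF-beta receptor SMAD, was at 0.16 ± 0.08 (adjusted p = 0.0185). Smad2 did not pass in the deposited log ratios (limma, adjusted p = 0.0519). Lower after loess were Smad6, Smad1 and Smad9, while Smad5 was not called. Smad6, an inhibitory SMAD, was at -0.15 ± 0.06 (adjusted p = 0.0163), Smad1 at -0.13 ± 0.05 (adjusted p = 0.0258) with its other probe at 0.09, and Smad9 at -0.13 ± 0.08 (adjusted p = 0.0385) with its other probe at -0.04. After removal of the trends with intensity and base composition, none of the 3 passed in limma: Smad6 was at -0.03 (adjusted p = 0.502), Smad1 at -0.08 (adjusted p = 0.121) and Smad9 at -0.09 (adjusted p = 0.106). Smad1 and Smad9 also did not pass in the deposited log ratios (-0.10 and -0.29; limma, adjusted p = 0.106 and 0.109), and with median centring Smad6 and Smad1 were above 0, at 0.19 each. Other SMAD targets, 12 genes of which 11 were tested, gave 2 higher and 0 lower in limma (3 and 2 at an unadjusted p under 0.05) with a median of -0.01. Among them, Atf3, a stress-induced transcription factor, was at 0.19 ± 0.10 (adjusted p = 0.0136) and did not pass in the deposited log ratios (limma, adjusted p = 0.0673).

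Downstream of the EMT-type factors, 11 of 19 epithelial junction genes were tested, with 1 higher, 1 lower and a median of 0.0001. Cdh1, the E-cadherin gene that SNAIL and ZEB proteins repress, was at 0.00 ± 0.02 (SD, n = 4; limma, adjusted p = 0.999), from a dim probe. Pkp2, a desmosome gene, was at 0.21 ± 0.09 (adjusted p = 0.00686) and Cldn3 at -0.11 ± 0.03 (adjusted p = 0.0429). Cldn3, a dim probe, was at -0.38 in the deposited log ratios and did not pass in limma without the trends (-0.04, adjusted p = 0.392), without the filter on dim probes (adjusted p = 0.0567) or without any 1 replicate (adjusted p = 0.0705 to 0.142). Pkp2 did not pass in the deposited log ratios (limma, adjusted p = 0.0582). Of 20 mesenchymal genes 17 were tested, 4 rose and 1 fell, with a median of 0.03. Vim was at 0.22 ± 0.10 (adjusted p = 0.00668) from a very bright probe, with a mean log2 intensity of 16.1, and at -0.03 in the deposited log ratios (limma, adjusted p = 0.790). Col1a1 was at 0.13 ± 0.09 (adjusted p = 0.0472), with its other probe at -0.02, and did not pass in the deposited log ratios (limma, adjusted p = 0.0651) or with the trends removed (adjusted p = 0.0973). Col3a1 was at 0.12 ± 0.03 (adjusted p = 0.0320), from a dim probe with a mean log2 intensity of 6.68. Its other probe was at 0.07 and not called. The lowest detected Cy3 signals in replicates 2 to 4 were 6.74, 6.78 and 6.79, so its level with IgG may lie below detection. This call may therefore rest on detection in Cy5 alone. Col3a1 was at -0.01 under median centring and 0.45 in the deposited log ratios, with no call once the trends were removed (0.04, limma, adjusted p = 0.351). Called lower was Itga5, an integrin subunit, at -0.15 ± 0.03 (adjusted p = 0.0114), which did not pass with the trends removed (-0.09; limma, adjusted p = 0.0729). Cdh2, the N-cadherin gene, was at 0.00 ± 0.09 (adjusted p = 0.952). Of 7 cell cycle genes linked to ID proteins, 5 were tested and 0 fell in limma (1 at an unadjusted p under 0.05). The 1 that rose was Cdkn1b, a cyclin-dependent kinase inhibitor, at 0.25 ± 0.10 (adjusted p = 0.00454), while its 2 other tested probes, at 0.06 and 0.11, were not called.

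**Figure D5:**
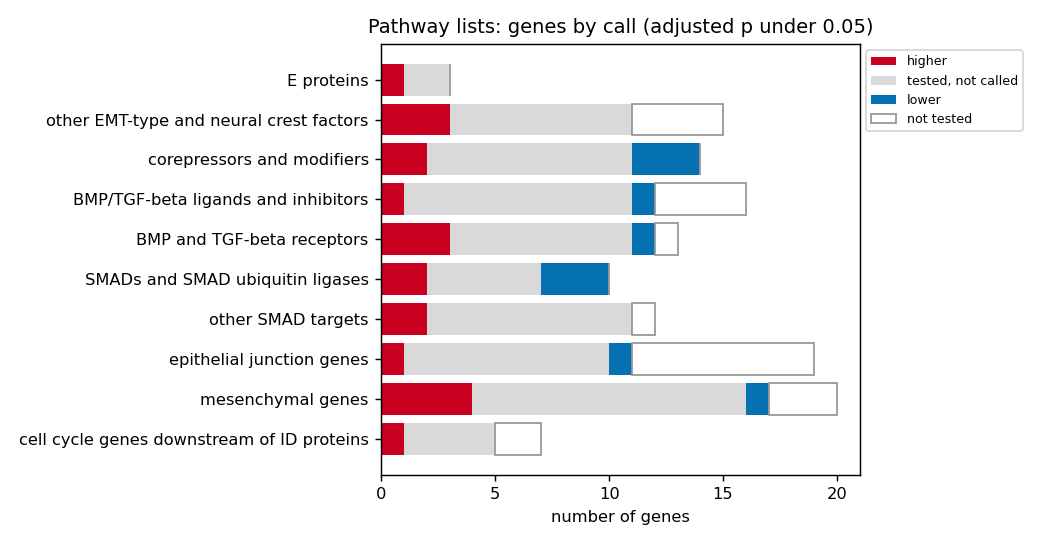
Number of genes in each of the 10 lists that were higher (red), tested without a call (grey), lower (blue) or not tested (white) after loess normalisation, at an adjusted p under 0.05, each gene by its brightest tested probe. Calls in both directions occur in 6 of the lists, 5 genes each are called among mesenchymal genes, SMADs with their ligases, and corepressors, and with median centring no list gene is called.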

How the data were processed

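Array signals of 4 pairs of samples were analysed, each pair the anti-TIM3 (Cy5) and IgG (Cy3) cells of 1 passage on 1 array. The deposited array files hold linear spot intensity in both channels, written by Agilent's Feature Extraction software, version 9.5.1.1 and annotation build mm7 per the file headers and version 9 per the submitters' processing notes. The deposited table of values is on a log10 scale, runs as Cy5 over Cy3 and matches the array files' own ratio column exactly. Its median over non-control spots is 0 on each array.

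From these, log2 ratios were computed. Mean signals were corrected with the median local background (normexp, offset 50) and normalised by loess within each array, control spots at weight 0 and outlier spots left out, and spots of a probe were averaged. A two-sided moderated test of each mean ratio against 0 was made in limma 3.58.1 (R 4.3.3; lmFit and eBayes), and p-values were adjusted over all tested probes by the Benjamini-Hochberg method. Only the limma step and the adjustment of p-values were tested on simulated ratios. The background correction, loess and averaging of spots were not. The few arrays limit the precision. The 4 arrays share 1 slide and 1 scan.

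Probes were named by RefSeq accession (22944), current symbol (6664) or synonym (3108) in a gene table of GRCm38.p6, and 8458 kept the file's name. All members were named, from each list up to 3 genes a direction that passed with 1 sign on 4 arrays, and for Id3 and Snai2, the members with the largest ratios at their brightest probes, the 3 genes nearest in pattern. One gene that this rule takes is not reported here. Cdh1, Cdh2, Smad5 and Tgfbr1 were named after their values were seen. The members and lists were chosen with earlier results of these data known. Alternatives covered the background correction, normalisation, filter, outlier spots, variance prior, intensity and base composition trends, channel pairing, the probe that stands for a gene, and each replicate left out.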

Additional observations from a re-analysis of the deposited data

Results flagged for a closer look

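Of 40 probes of members and named list genes, 3 had 1 array outside the spread of the other 3 by Dixon's ratio, which chance does in about 1 in 20 groups of 4. For Snai2 this was replicate 3, at 0.1521 against 0.19 to 0.20. For Acvr1b it was replicate 1, at 0.0341 against 0.20 to 0.22. For Cldn3 it was replicate 4, at -0.0598 against -0.13 to -0.12. All are log2 ratios of anti-TIM3 over IgG.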

How the results depend on the processing

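The choice of normalisation moved the members most. With no loess, each array was centred on the median of all 41174 probes, the dim untested ones included, so tested probes need not have a median of 0. The median of all tested probes was 0.15. In limma 0 probes were called (unadjusted p under 0.05: 964 higher, 37 lower), 0 members (1 and 0) and 0 list genes. The cause of the difference from loess was not tested. Reversed log2 ratios there were 0.301 and 0.3006 (Id1), 0.4313 (Id2 A_51_P219074), 0.2189 (Id3), 0.127 and 0.0016 (Zeb2 A_52_P526372 and A_52_P587928), 0.1203 (Skil A_52_P597461), 0.1634 (Hdac1), 0.2237 (Ctbp1), 0.1891 (Fbxl14), 0.0769 (Eng), 0.186 (Smad6), 0.1907 (Smad1) and -0.0089 (Col3a1).

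In the deposited log ratios 2385 probes and 0 members were lower (2 members at an unadjusted p under 0.05) and 11 list genes higher, and Id2 A_52_P240542 (-0.0061) and Vim (-0.0261) reversed. With intensity and base composition trends removed, 4 member probes (both of Id1, Id2 A_51_P219074 and Id3) and 6 list genes were lower, and Id2 A_52_P240542 was at -0.077. Without a filter on dim probes 2 members were lower, the second being Zeb1, not well above background in Cy3 on any array; with the stricter filter Id2 A_52_P240542 was called higher. Without the replicate block, that is with the channels of an array fitted separately, limma called 330 probes higher and 252 lower, 0 members in either direction (1 and 1 at an unadjusted p under 0.05), and 1 list gene higher and 0 lower (10 and 4). Leaving out 1 replicate gave 2141 to 3514 probes higher and 2080 to 2736 lower, 1 to 3 members higher and 1 to 2 lower, and 9 to 20 list genes higher and 4 to 7 lower, with the fewest higher members without replicate 2 or 4. Keeping outlier spots or an intensity trend in the prior changed no call of the members or named list genes. A slide block was not possible, since all arrays share 1 slide. Signal over background limits Id4, Snai1, Twist1 and Zeb1.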

Other observations

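A further probe, A_51_P106893, carries the name D130016B08Rik, which RefSeq lists as a synonym of Zeb2. It falls outside the rule by which members were found. It was well above background in Cy5 on 4 arrays and in Cy3 on 0, with log2 ratios of -0.003, -0.12, -0.07 and -0.05 and a mean of -0.06 ± 0.05 (SD, n = 4; limma, adjusted p = 0.220).

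A second Havcr2 probe, A_52_P560535, was well above background in Cy3 on 0 arrays and in Cy5 on 1 and was not tested.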
